A study of Mus musculus with 8 samples.

Results

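Sox13, Maf, Etv5, Blk, Cd163l1 and Zbtb16 are 6 genes linked to the γδ and innate-like T cell fates, chosen by name out of the 15653 genes of the count matrix. They were followed across the deposited clusters and 4 libraries of double-negative thymocytes, the immature thymus cells without CD4 and CD8. One genotype was wild-type (WT) C57BL/6J. The other was a knock-in (KI) of GSK3B Ser389Ala, in which GSK3β, a kinase of Wnt and many other pathways, has alanine in place of a serine. From each genotype DN3 cells (CD44-negative, CD25-positive) and DN4 cells (CD44-negative, CD25-negative) were sorted after magnetic depletion of cells with MHC class II, CD11b, CD4, CD8 or immunoglobulin κ. Each of the 4 groups had 1 library of 5′ single-cell expression and 1 of T cell receptor sequence. The number of mice behind a library is not given in the sources used here, and a transcript count does not read the replaced residue.

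γδ T cells leave the double-negative stages with receptors of a γ and a δ chain, while most thymocytes go on to rearrange β and then α chains. Part of the γδ lineage is programmed in the thymus to make the cytokine IL-17, under HMG box, MAF and ETS family factors. Another part, like natural killer T (NKT) cells with an invariant α chain, depends on the zinc finger factor PLZF, and γδ cells of this kind are known for their use of few V segments. Lists and members were described by counts and ratios, because with 1 library per group there was no test of a genotype or a stage.

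DN3 comprised 2885 WT and 3298 KI cells and DN4 comprised 1477 WT and 2577 KI cells. Their median unique molecular identifiers (UMIs) per cell were 5927 and 5495 in DN3 and 7121 and 9345 in DN4. In all, 54 barcodes occurred in more than 1 library among 10237 cells. Of the deposited clusters, cluster 2 held 595 WT and 976 KI cells of DN4 but 0 and 2 cells of DN3. With the members left out of the marker lists, cluster 2 had raised levels of 3 of 10 γδ T cell markers, namely Trdc (the δ constant region), Trdv5 and Id3. It also had raised levels of 8 of 13 markers of mature αβ T cells, among them Trac and S1pr1, and of 3 of 13 markers on the list for innate lymphocytes (NK, innate lymphoid, NKT). For that reason it is called by its number. B cell, myeloid and erythroid lists had 0 raised markers in it. Cluster 5 (324 WT and 328 KI DN4 cells) served as the reference, with few UMIs of most members, and cluster 7 (22 WT and 75 KI DN4 cells) had raised levels of 8 of 10 cycling markers. Clusters were made from the expression of these cells, so a cluster against the rest is a description and not a test.

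Sox13, an HMG box factor of the SoxD group and an early mark of the γδ lineage (chr1:133382303-133424377, minus strand, GRCm38 as for the other members), had a WT DN3 level of 6.75 counts per 1000000 UMIs (CPM) and a KI DN3 level of 6.50. Its DN4 levels were 42.8 for WT and 24.3 for KI. Both DN4 libraries lay above both DN3 libraries, and the KI DN4 library lay between the DN3 libraries and WT DN4. The log2 ratio of DN4 over DN3 was 2.66 (2.41 to 2.93) in WT and 1.90 (1.66 to 2.15) in KI, with 95% intervals that here and throughout cover counting error only.

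Maf, a basic leucine zipper factor needed for γδ cells that make IL-17 (chr8:115682942-115707794, minus strand), showed the same order. It stood at 3.18 and 2.04 CPM in WT and KI DN3, against 26.4 and 15.4 in DN4, a log2 ratio of 3.06 in WT and 2.92 in KI. Etv5, an ETS factor of the PEA3 group in the same programme (chr16:22381309-22439719, minus strand), lies 15.6 Mb from Gsk3b on its chromosome. It stood at 3.97 and 5.41 CPM in DN3 and at 50.8 and 37.7 in DN4. Its stage ratio was 3.68 (3.36 to 4.01) in WT and 2.80 (2.55 to 3.07) in KI on the log2 scale, so these 2 intervals did not overlap. With 1 library per group, a difference between libraries and one between genotypes or stages cannot be told apart, and in summed counts fewer cells of a kind and less RNA per cell cannot be told apart either.

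Blk, a SRC family kinase known from B cells (chr14:63372836-63417037, minus strand), and Cd163l1, a scavenger receptor (SCART1) found on γδ cells (chr7:140218267-140231145, plus strand), were also present in DN3, more so in WT. Blk stood at 14.2 and 8.93 CPM in WT and KI DN3 and at 44.7 and 36.4 in DN4. Cd163l1 stood at 13.0 and 5.80 CPM in DN3 and at 31.1 and 15.9 in DN4, so its KI DN4 value lay close to its WT DN3 value. Zbtb16, which encodes PLZF (chr9:48654297-48836222, minus strand), had 6 UMIs in WT DN3 and 3 in KI DN3, against 132 and 206 in DN4 (8.04 and 6.78 CPM).

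In WT, 5 members reached the minimum of 20 CPM in either library, and 5 of 5 were at least 2-fold higher in DN4, beside 3.82% of the 5987 genes tested. In KI, 3 members reached it and 3 of 3 were at least 2-fold higher, beside 2.68% of 5822 genes. Every one of them passed the minimum through DN4 alone, so these counts describe the choice of members and support nothing. Without cells that carried a productive TCRβ (TRB) contig, the ratios were larger, at 4.23 for Sox13, 4.67 for Maf and 6.13 for Etv5 in WT and at 3.51, 4.72 and 4.95 in KI.

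RefSeq promoter entries matched 3 of the 6 members, Sox13, Etv5 and Cd163l1 (GRCm38.p6). They are shown because the level of Sox13 followed that of Cd163l1 across clusters and libraries more closely than that of Etv5. Pearson's r of log2(CPM + 1) was 0.93 with Cd163l1 and 0.79 with Etv5. The order depends on the CPM added before the logarithm, since with 10 CPM added r was 0.953 and 0.952. E-boxes are the sites of E proteins, whose inhibitor Id3 was among the markers raised in cluster 2. Up to 250 bases before the RefSeq start were taken, and bases inside the GENCODE gene were dropped, which left 85 bases for Sox13 (chr1:133424378-133424462, minus strand), 101 for Etv5 (chr16:22439720-22439820, minus strand) and all of them for Cd163l1 (chr7:140218017-140218266, plus strand). Sequences run 5′ to 3′ on the gene's strand, and capitals mark matches to the E-box CANNTG.
Sox13: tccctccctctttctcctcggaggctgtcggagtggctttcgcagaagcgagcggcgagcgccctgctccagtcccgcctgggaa
Etv5: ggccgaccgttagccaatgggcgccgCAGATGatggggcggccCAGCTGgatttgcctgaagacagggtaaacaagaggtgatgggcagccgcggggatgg
Cd163l1: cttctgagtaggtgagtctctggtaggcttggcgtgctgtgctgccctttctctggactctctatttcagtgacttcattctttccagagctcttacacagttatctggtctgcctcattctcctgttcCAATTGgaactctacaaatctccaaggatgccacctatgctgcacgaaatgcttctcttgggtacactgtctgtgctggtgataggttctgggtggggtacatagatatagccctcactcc
On both strands, CANNTG occurred 2 times before Etv5, where 36.5% of 32851 RefSeq windows of that length hold it. It occurred 1 time before Cd163l1, where 66.2% hold it, and 0 times before Sox13, where 31.8% do. The cores ACAAT (SOX), CTTTG (TCF/LEF), CCGGAA (ETS) and TGCTGA (MAF) had 0 matches in the 3 windows, which says only that these letters are absent there. The upstream bases of Sox13 and Etv5 were rich in G and C (67.1% and 64.4%), against 48.8% for Cd163l1.

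Within DN4, cluster 2 held most UMIs of every member. The share was 88.2% for Sox13, 96.1% for Maf, 86.8% for Etv5, 88.8% for Blk, 83.6% for Cd163l1 and 82.6% for Zbtb16 in WT. In KI the shares ran from 75.8% for Etv5 to 94.0% for Maf. Ranked over the 19 combinations of cluster and library with at least 50 cells, Sox13 was highest in cluster 2 of WT DN4 (167 CPM, 154 to 180.4), then in cluster 2 of KI DN4 (111, 103 to 121) and in cluster 7 of KI DN4 (63.5, 48.7 to 81.4). These 3 intervals did not overlap, and from the fourth value (9.36 in cluster 6 of KI DN3) down, neighbours did. Cd163l1 had the same first 3 places (115, 73.4 and 25.6 CPM), but the third overlapped the next, 15.4 in cluster 1 of WT DN3. Etv5 (195, 169.7 and 127) and Blk (175, 169.7 and 83.9) also had them, with WT and KI overlapping in cluster 2. For Maf, cluster 2 of WT and of KI (112 and 86.1) stood clear of the third place, 13.4 in cluster 0 of WT DN3 (4.34 to 31.2). Zbtb16 had 3 leading values that overlapped, 33.8 in cluster 7 of KI DN4 and 31.0 and 29.3 in cluster 2, and the next, 7.25 in cluster 5 of WT, lay clear of them.

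**Figure D1:**
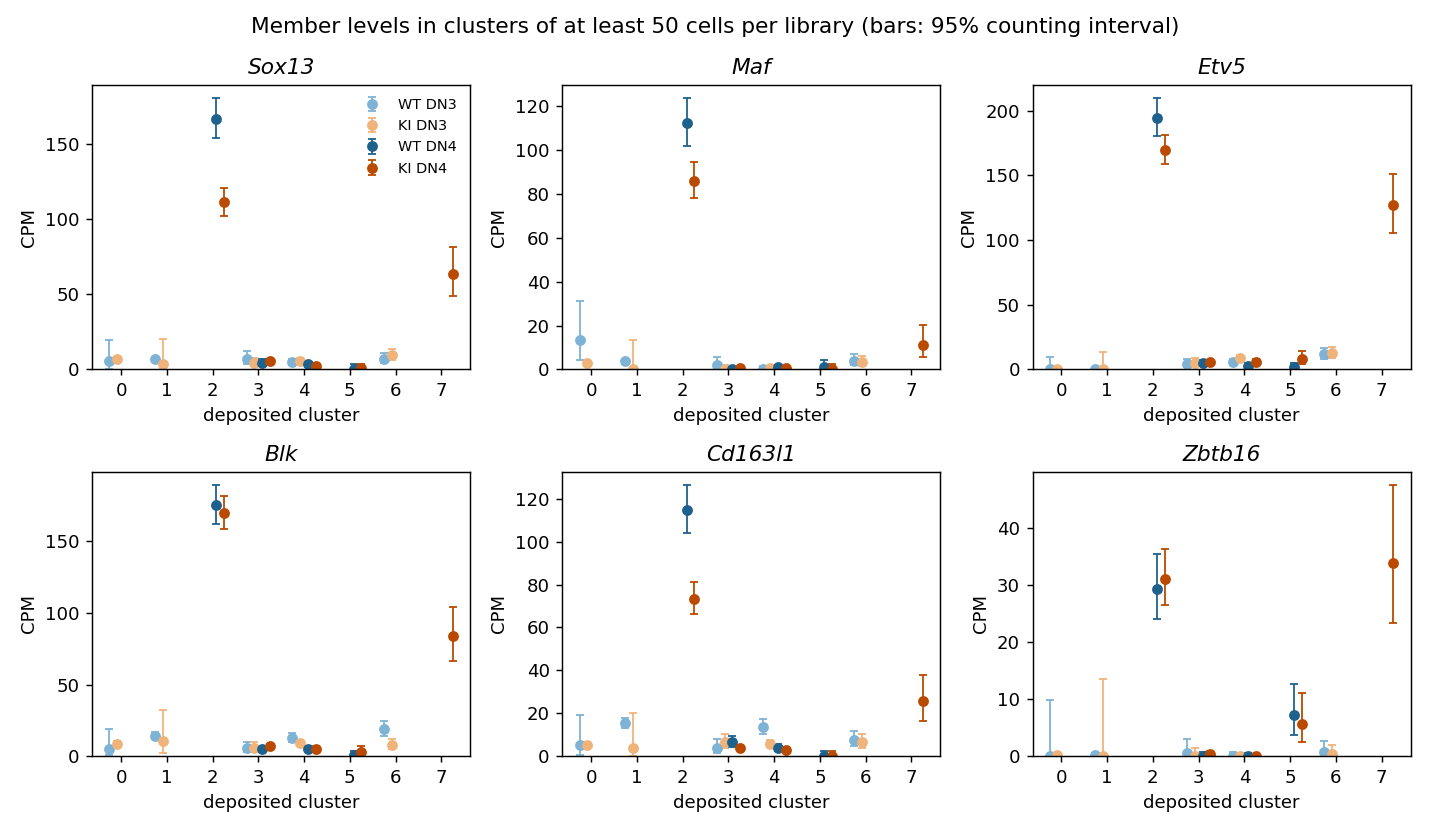
CPM of each member (vertical axis, from 0) by deposited cluster (horizontal axis) in the 4 libraries, for combinations of at least 50 cells; points are sums of UMIs over the total and bars are 95% counting intervals. Cluster 2 stands highest for 5 members, and Zbtb16 in cluster 7 of KI DN4 (33.8) lies level with cluster 2 (29.3 and 31.0).

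Cluster 7, with 8 of 10 cycling markers raised, divided the members. Raised in it were also 7 of 13 mature αβ markers, 4 of 13 innate lymphocyte markers and 2 of 10 γδ markers. Etv5 stood at 111 CPM in its WT DN4 cells and 127 in its KI DN4 cells, and Blk at 47.4 and 83.9. Maf had 0 UMIs in the 22 WT cells and 11 UMIs (11.3 CPM) in the 75 KI cells, beside 112 and 86.1 CPM in cluster 2. The DN3 cells in cluster 7 were few, but Etv5 had a UMI in 7 of 7 of them in WT and in 6 of 7 in KI (121 and 149 CPM), and Blk in 5 and 4. Zbtb16 stood at 26.4 and 33.8 CPM in cluster 7, within the intervals of cluster 2.

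Cluster 5 had few UMIs of the members. Sox13 had 2 UMIs in 652 cells, Maf 2 and Blk 5. Cd163l1 had 0, and 3 counts of the 652 cells set the limit at a share of 0.460%, which bounds cells with a UMI and not cells expressing the gene. Etv5 had 3 UMIs in WT and 11 in KI (1.81 and 7.78 CPM), each in a cell of its own, and Zbtb16 had 12 and 8 (7.25 and 5.66 CPM), spread over 6 and 5 cells. Cluster 8 was small (88 cells) and shallow, with a median of 1664.5 UMIs, and stays unnamed: its 33 WT and 14 KI cells of DN3 had Il2ra, the CD25 chain, at 1218 and 1366 CPM and few member UMIs. Its 25 WT cells of DN4 had 1 Il2ra UMI and Sox13 at 324 CPM (167 to 566), from 12 UMIs in 6 cells, and 10 UMIs each of Etv5 and Cd163l1. The 16 KI cells had 3 Sox13 UMIs. These DN4 cells held a median of 0.208 (WT) and 0.127 (KI) of the UMIs of their library's median cell.

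Share of cells with a UMI was compared after every cell was thinned to 2500 UMIs, which left out 18 WT and 95 KI cells of cluster 2. The thinned Sox13 share was 32.2% in WT (28.4 to 36.2) and 21.7% in KI (19.0 to 24.6), against 0.182% of the thinned cells of cluster 5. Before thinning, the values were 47.1% and 33.0% at median depths of 5252 and 4297.5 UMIs, and cluster 5 had 0.307% at 4089. Maf was detected in 24.8% and 19.98% of thinned cells and Cd163l1 in 15.1% and 11.7%. Etv5 (28.8% and 26.0%), Blk (28.2% and 29.3%) and Zbtb16 (3.99% and 4.09%) lay closer together in the 2 genotypes. Thinned cluster 5 cells gave 0% for Maf and Cd163l1, 0.364% for Etv5, 0.182% for Blk and 1.27% for Zbtb16, and in clusters 3 and 4 of all libraries Zbtb16 was detected in 3 of 2447 cells (0.123%) at a median depth of 19985 UMIs before thinning.

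Both DN4 libraries contained all 6 genes, and each had the lower CPM in KI. On the log2 scale, KI over WT gave -0.82 (-0.97 to -0.67) for Sox13, -0.78 (-0.97 to -0.59) for Maf and -0.97 (-1.15 to -0.79) for Cd163l1. The difference was smaller for Etv5, at -0.43 (-0.56 to -0.30), and for Blk, at -0.29 (-0.43 to -0.16). For Zbtb16 the ratio was -0.25 with an interval that included 0 (-0.57 to 0.08). Of the 5 members with at least 20 CPM in either DN4 library, 0 were 2-fold apart, beside 0.662% of 5592 genes, and 5 had intervals below 0, beside 37.9%. Cd163l1 and Maf passed the minimum only through WT, so the count is a description.

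The makeup of the libraries moved with these ratios. When the clusters were given the WT mix in both libraries, Blk went to -0.058, Etv5 to -0.21, Maf to -0.43, Sox13 to -0.58 and Cd163l1 to -0.74. Without TRB cells, Etv5 went to -0.16, Blk to -0.064, Sox13 to -0.59 and Maf to -0.55. Without clusters 2, 5 and 7, Etv5 and Blk stood at 0.025 and 0.17. Etv5 had 65 UMIs in WT and 142 in KI (6.10 and 6.20 CPM), and Blk 63 and 152 (5.91 and 6.64 CPM). These levels lay below the minimum of 20 CPM. With each cell weighted alike, Maf stood at -0.37, Blk at -0.054 and Zbtb16 at 0.082. Trimmed-mean scaling of whole libraries raised the DN4 ratios of KI over WT by 0.11 and the KI ratios of DN4 over DN3 by 0.12, and 6 of 6 members kept their direction in each.

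Inside cluster 2 the ratio of KI over WT ranged from -0.65 to 0.08 over the members. Cd163l1 had 427 UMIs in WT (115 CPM) and 376 in KI (73.4 CPM), a log2 ratio of -0.65 (-0.85 to -0.44). Sox13 stood at 167 and 111 CPM, a ratio of -0.58 (-0.75 to -0.41), and Maf at 112 and 86.1 CPM, a ratio of -0.38 (-0.58 to -0.19). Etv5 stood at 195 and 169.7 CPM, a ratio of -0.20 (-0.34 to -0.05). These 4 genes were lower in KI by more than counting error. Blk stood at 175 and 169.7 CPM (-0.05, -0.19 to 0.10) and Zbtb16 at 29.3 and 31.0 CPM (0.08, -0.28 to 0.45), and both intervals included 0, which leaves small differences in either direction undetectable at this depth.

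Of the 6 members in cluster 2, 0 were 2-fold apart, beside 0.828% of 5919 genes, and 4 had intervals below 0, beside 17.8%, with 12.0% of all genes above 0. The members' median log2 ratio was -0.29, against -0.02 over all genes tested. Other lists moved in the same cells: the summed level of 10 γδ markers (members left out, 0 of 10 at 0) was 5645 CPM in WT and 5049 in KI, that of 13 mature αβ markers (0 at 0) was 3996 and 3085, and that of the 13 innate lymphocyte markers (1 at 0) was 2781 and 3442. Gzma, on the innate list, stood at 3956 CPM in WT and 5086 in KI in cells with a Sox13 but no Zbtb16 UMI. Those cells (275 WT and 315 KI) are a part of cluster 2, so these values do not give the share of Gzma in the innate sum of the whole cluster. Median depth was also lower in KI. The part of these differences in the members' ratios was not tested. Among cells of at least 2500 UMIs, among G1 cells and without Zbtb16-detected cells, the ratio of each member compared stayed within its interval. Without TRB cells the ratio of Zbtb16 went to -0.55, from 65 UMIs in WT and 62 in KI.

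**Figure D2:**
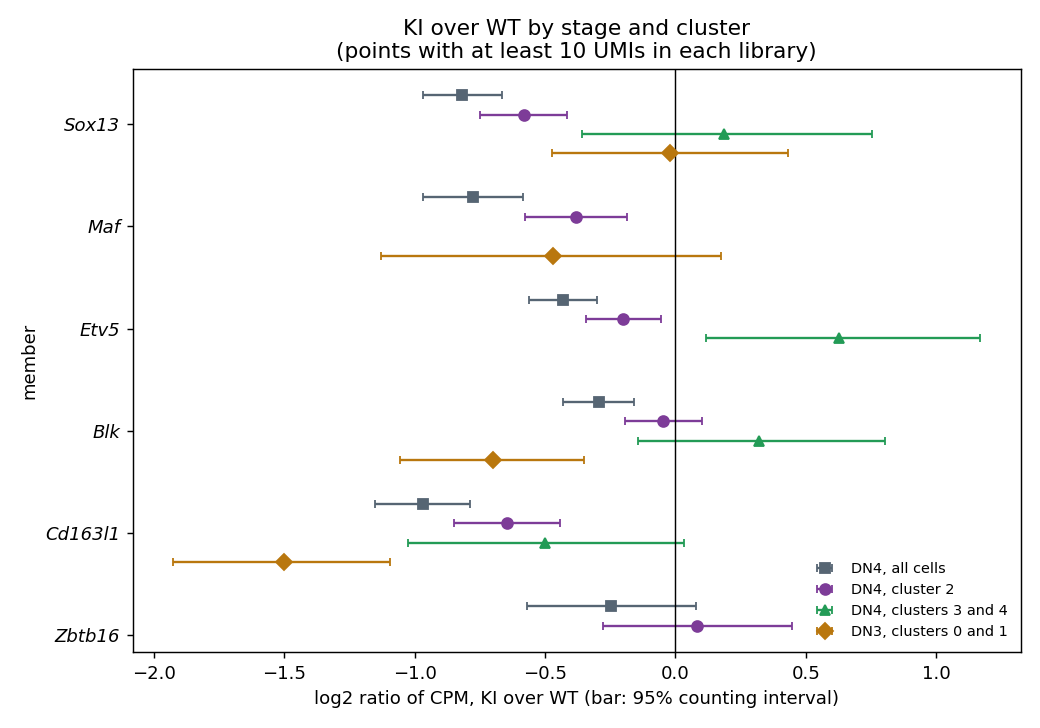
Log2 ratio of CPM, KI over WT (horizontal axis), for each member (vertical axis) in all DN4 cells, cluster 2 of DN4, clusters 3 and 4 of DN4 and clusters 0 and 1 of DN3, where both libraries had at least 10 UMIs; bars are 95% counting intervals. Sox13, Maf, Etv5 and Cd163l1 lie left of 0 in all DN4 cells and in cluster 2. Blk and Zbtb16 in cluster 2 lie close to 0 (-0.05 and 0.08), and Etv5 in clusters 3 and 4 lies to the right (0.63).

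The neighbouring gene lists of cluster 2 were described with the same ratio, as lists chosen with earlier results of these data known. The family lists contain the members themselves (Etv5 also stands in the receptor signal list), so their counts partly restate the member ratios. Of all genes tested in cluster 2, 17.8% had intervals below 0 and 12.0% above, with a median of -0.020. Among measured genes of the IL-17 programme, 7 of 11 had intervals below 0 and 0 above, with a median of -0.21. The set includes S100a4, a calcium-binding protein (-0.92), and Sox4, an HMG box factor (-0.67; 901 CPM in WT and 565 in KI). HMG box factors, the family of Sox13, had 6 of 10 below and 1 above. ETS factors, the family of Etv5, had 4 of 9 below, and SRC and TEC kinases with their adaptors, the group of Blk, had 4 of 11 below and 1 above. MAF and BACH factors had 3 of 7 below, BTB zinc finger factors 3 of 7 and scavenger receptor cysteine-rich genes 3 of 4, each with 0 above. Genes of the γ and δ constant regions had 4 of 4 below. Outside cluster 2 they had 4 of 4 below in clusters 3 and 4 of DN4, beside 1307 of 5149 genes. In clusters 0 and 1 of DN3 they also had 4 of 4 below, beside 1368 of 5964 genes. In cluster 5 of DN4 they had 1 of 4 below and 1 above, beside 692 of 6210 genes below and 407 above.

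Receptor signal strength genes had 8 of 10 below and 1 above, with a median of -0.28, and 2 of them were at least 2-fold lower, beside 0.642% of all genes. These were Nr4a2, an orphan nuclear receptor induced by antigen receptor signals (70.2 CPM in WT, 33.6 in KI, ratio -1.06), and Egr1, an immediate early factor (112 and 55.6 CPM, ratio -1.01). Outside cluster 2, the signal list had 4 of 5 below and 1 above in clusters 3 and 4 of DN4 (median -0.51). In clusters 0 and 1 of DN3 it had 5 of 8 below and 3 above (median -0.25). In cluster 5 of DN4 it had 4 of 12 below and 2 above (median -0.01), beside 692 of 6210 genes below and 407 above. PLZF-linked genes, the list closest to Zbtb16, had 3 of 11 below and 1 above with a median of -0.07. At least 2-fold lower among them were 2 genes, Slamf1, a SLAM family receptor (27.7 CPM in WT, 10.5 in KI, ratio -1.39), and Ctla4, an inhibitory receptor (29.6 and 14.4 CPM, ratio -1.03). Both passed the minimum of 20 CPM only through WT, so their count is a description. Interferon γ and cytotoxic genes had 2 of 6 below and 1 above.

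In DN3, where no member reached 20 CPM and 0.69% of all genes tested were 2-fold apart, the ratios of the members differed in sign. Cd163l1 had 294 UMIs in WT and 148 in KI (-1.16, -1.46 to -0.87), and Blk 322 and 228 (-0.67, -0.92 to -0.42). Maf was also lower in KI (-0.64, -1.19 to -0.11) and Etv5 higher (0.44, 0.05 to 0.84), while Sox13 was at -0.05 (-0.38 to 0.27). Without TRB cells the Etv5 ratio went to 1.01. Clusters 0 and 1 held most DN3 cells, but cluster 1 was mainly WT and cluster 0 mainly KI, so they were joined (2255 WT and 2469 KI cells).

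In the joined clusters Cd163l1 stood at 15.1 CPM in WT and 5.34 in KI, a ratio of -1.50 (-1.92 to -1.09), where 22.9% of all genes had intervals below 0. Its thinned share of cells was 2.45% (1.84 to 3.18) in WT and 1.17% (0.780 to 1.69) in KI, against 4.08% and 2.03% before thinning. In WT, 22 of 2255 cells had at least 3 Cd163l1 UMIs and held 105 of the 194 (54.1%), whereas in KI 4 cells held 13 of 67. Cells with 1 or 2 UMIs numbered 70 in WT and 46 in KI. Of the 22 cells, 16 had a UMI of Trdc, 15 of Il2ra, 5 of Blk, 2 of Sox13 and 0 of Maf, and 2 had a TRB contig. In shares, 72.7% had Trdc, 68.2% Il2ra, 22.7% Blk and 9.09% Sox13, at a median depth of 6613.5 UMIs. Of the 2163 WT cells with 0 Cd163l1 UMIs, 45.4% had Trdc, 84.7% Il2ra, 6.89% Blk and 3.61% Sox13, at a median of 5409. Blk itself stood at 14.1 CPM in WT and 8.69 in KI in the joined clusters (-0.70, -1.06 to -0.35), and Sox13 at 6.71 and 6.62.

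Etv5 had the higher value in KI in clusters 3, 4 and 5, and 6 UMIs in WT against 1 in KI in clusters 0 and 1 of DN3. In clusters 3 and 4 joined, of which cluster 4 had 10 of 10 cycling markers raised, it stood at 5.20 CPM in WT and 8.06 in KI in DN3 (0.63, 0.04 to 1.26) and at 3.93 and 6.07 in DN4 (0.63, 0.12 to 1.17). Intervals above 0 were found for 18.9% of all genes in the DN3 comparison and 19.1% in the DN4 one. In cluster 7 of DN4, Blk was higher in KI (0.82, 0.07 to 1.65), beside 6.35% of 5949 genes with intervals above 0. Sox13 (0.34), Etv5 (0.20) and Zbtb16 (0.36) had intervals that included 0, and Cd163l1 (-0.53) went to 2.88 without TRB cells, from 1 UMI in 13 WT cells and 24 in 52 KI cells.

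Co-detection asked whether the members share cells. Each cluster 2 cell was thinned to 2500 UMIs, and cells with both genes were set against the number that the product of the 2 shares gives. Sox13 and Blk were found together in 93 WT cells, where the product gives 52.5 (ratio 1.77), and in 99 KI cells against 55.9 (1.77). Sox13 and Etv5 were together in 85 WT cells against 53.5 (1.59) and 97 KI cells against 49.6 (1.95). Sox13 and Maf gave 71 against 46.1 (1.54) and 68 against 38.2 (1.78). These 3 pairs lay above the product in both libraries, as did Etv5 with Blk (1.73 and 1.89), Maf with Blk (1.66 and 1.90) and Maf with Etv5 (1.63 and 1.38).

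Cd163l1 and Blk were found together in 25 WT cells against 24.6 (1.02) and 45 KI cells against 30.2 (1.49). The ratios of Cd163l1 in WT and KI were 1.32 and 1.66 with Sox13, 1.20 and 1.64 with Etv5, and 1.39 and 1.26 with Maf. Zbtb16 ran the other way, with ratios between 0.107 and 0.556 for its pairs, from 1 to 4 shared cells each. At full depth Sox13 and Zbtb16 shared 5 WT cells against 16.0 and 7 KI cells against 20.1. Cells of greater depth detect more of every gene, which thinning equalises.

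**Figure D3:**
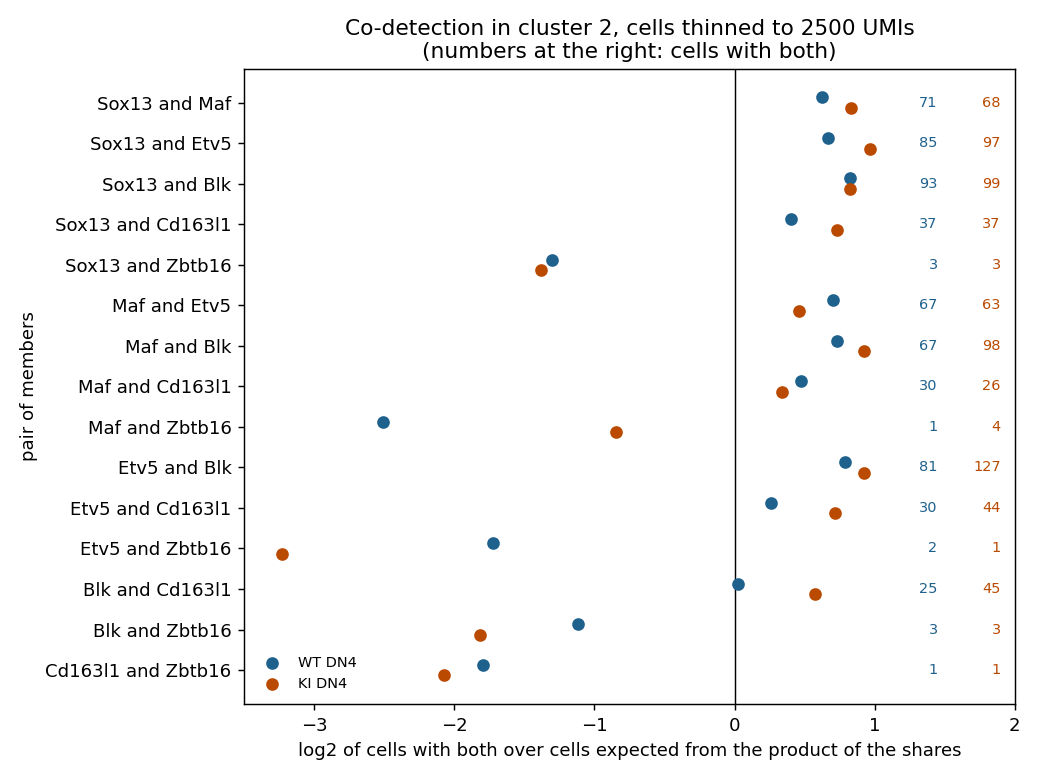
Log2 of cells with both members over cells expected from the product of the shares (horizontal axis, 0 marks the product) for each pair (vertical axis) in cluster 2 of WT and KI DN4, thinned to 2500 UMIs, with the number of cells with both at the right. Pairs among Sox13, Maf, Etv5 and Blk lie right of 0 in both libraries (ratios 1.38 to 1.95), and each pair with Zbtb16 lies left of it (0.107 to 0.556).

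Counting the 5 genes other than Zbtb16 in each thinned cell, 219 of 577 WT cells (38.0%) and 401 of 881 KI cells (45.5%) had none detected. Cells with 4 of them numbered 29 in WT (5.03%) and 27 in KI (3.06%), and cells with all 5 numbered 5 and 7. Zbtb16 was detected in 17 of the WT cells with none (7.76%) and in 29 of the KI cells with none (7.23%). It was detected in 0 of the thinned cells with 4 or 5 in either library, which are few. At full depth it was detected in 1 of 99 WT and 1 of 103 KI cells with 4, and in 0 of those with 5.

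Zbtb16-detected cells of cluster 2 (34 WT and 61 KI) were set beside Sox13-detected cells without Zbtb16 (275 and 315). The groups were drawn with the expression of these genes, so the values describe the cells, and Zbtb16 and Sox13 are the selection itself. Zbtb16-detected cells were deeper, with median UMIs of 9358 and 7154 against 5386 and 4892. A productive TRB contig was found in 41.2% of them in WT and 47.5% in KI, against 17.5% and 12.7%, and a TRA contig in 29.4% and 32.8%, against 4.36% and 3.49%. Trdc was detected in 61.8% and 49.2%, against 87.3% and 81.9%, and cells outside G1 made up 32.4% and 21.3%, against 6.91% and 9.84%. None of these cells was called a doublet.

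Of 5736 genes tested in both libraries, 199 were at least 2-fold higher and 199 at least 2-fold lower in Zbtb16-detected cells in both (3.47% each), and in each library singly 18.7% (WT) and 15.9% (KI) were 2-fold apart. Maf, Etv5, Blk and Cd163l1 were among the lower ones, and the comparison cells had been drawn on Sox13, with which these genes were co-detected above. Maf stood at 9.43 CPM in Zbtb16-detected and 168 in Sox13-detected WT cells (-4.15), and at 17.2 and 143 in KI (-3.05). Etv5 was lower by log2 ratios of -2.49 and -4.48, Blk by -2.72 and -2.75 and Cd163l1 by -3.16 and -2.59. Over all genes tested, 568 of 6361 in WT and 504 of 6082 in KI were at least 2-fold lower, and 620 and 465 at least 2-fold higher. Of the IL-17 programme, 6 of 12 genes in WT and 7 of 14 in KI were at least 2-fold lower, and 2 and 4 were at least 2-fold higher. Among the lower ones was Rora, a nuclear receptor (-1.86 and -2.09).

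Genes known from NKT and innate-like cells went both ways. Of the PLZF-linked list, in WT 4 of 12 passed 2-fold upward and 4 downward, and in KI 5 of 10 upward and 2 downward. Of the interferon γ and cytotoxic list, in WT 1 of 6 passed it upward and 3 downward, and in KI 2 of 7 upward and 3 downward. Gzma, a granzyme, was lower (-3.17 and -4.98), as were Runx3 (-2.33 and -1.25) and Gata3 (-1.02 and -1.03), both transcription factors. These genes and those that follow were chosen after their values were seen. Il2rb, a chain of the IL-2 receptor, was higher by 4.09 and 3.52 on the log2 scale, Slamf6 by 4.18 and 2.82 and Id2, another inhibitor of E proteins, by 2.67 and 3.82. Egr2, a factor of strong receptor signals, was higher by 4.47 and 5.12. The receptor signal list went both ways. In WT 5 of 11 of its genes passed 2-fold upward and 3 downward, and in KI 3 of 11 upward and 2 downward. Il4, a cytokine of NKT cells, stood at 40.9 and 60.1 CPM against 0 UMIs in both Sox13-detected groups. Tcrg-V1 was higher by 1.16 and 0.93, while Trdv5 was lower (-4.35 and -1.73).

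**Figure D4:**
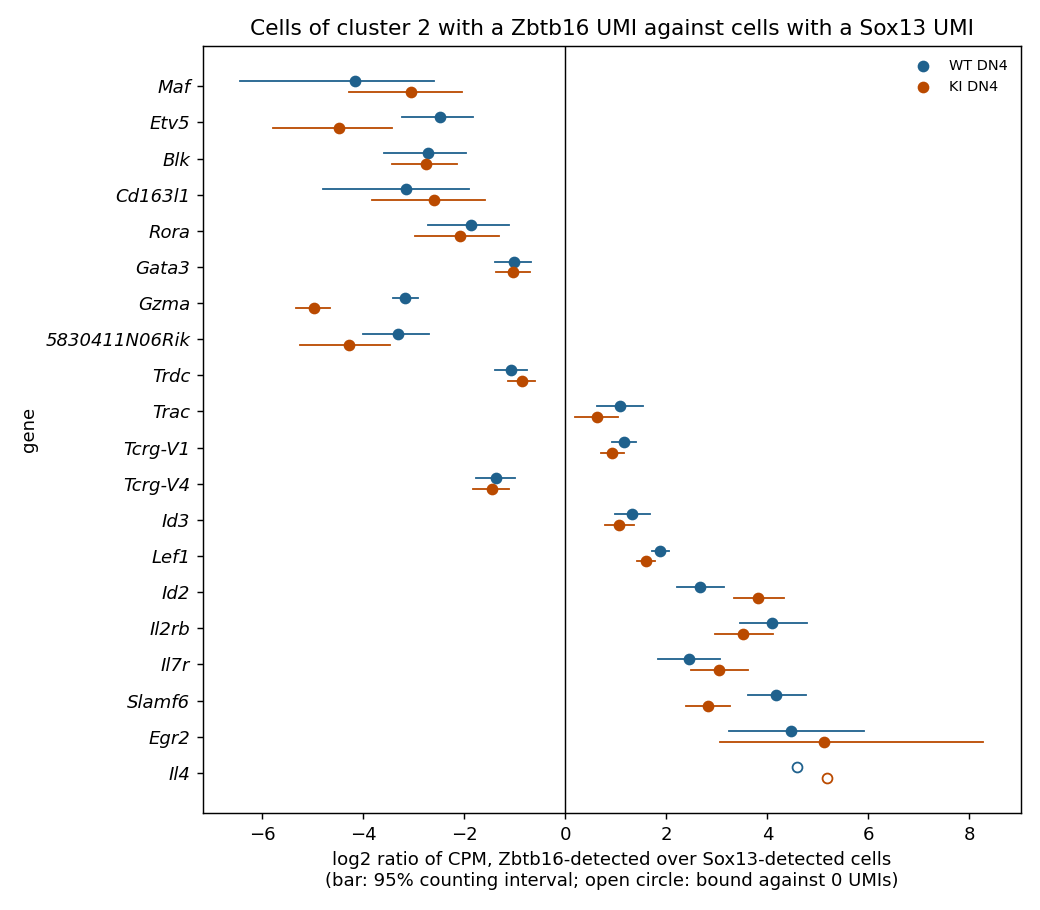
Log2 ratio of Zbtb16-detected over Sox13-detected cluster 2 cells (horizontal axis) in WT and KI DN4 for members and display genes, chosen after their values were seen; points are ratios of summed UMIs and bars are 95% counting intervals and open circles bounds against 0 UMIs. Maf, Etv5, Blk and Cd163l1 lie left of 0 in both libraries, and Il2rb, Slamf6, Egr2 and Id2 lie right of 0.

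The receptor contigs divided cluster 2 into cells without a TRB contig (484 WT, 794 KI), with TRB but no TRA contig (83 and 124) and with both (28 and 58). Zbtb16 was detected in 4.13%, 6.02% and 32.1% of these cells in WT and in 4.03%, 8.06% and 32.8% in KI. Its CPM was 22.1, 33.6 and 117 in WT and 15.1, 48.1 and 179 in KI. Sox13 was detected in 47.5%, 48.2% and 35.7% in WT and in 35.1%, 23.4% and 24.1% in KI, and Maf in 39.9%, 33.7% and 21.4% in WT and in 29.7%, 24.2% and 17.2% in KI. The interval of Zbtb16 in cells with both contigs (15.9 to 52.4 in WT, 21.0 to 46.3 in KI) lay above that of cells with no TRB contig in both libraries, whereas the intervals of the Sox13 shares overlapped. By CPM, Sox13 stood at 112 (71.9 to 167) in WT cells with both contigs and 169.5 (155 to 185) in those with no TRB contig. In KI it stood at 46.9 (27.3 to 75.1) and 121 (111 to 132), which did not overlap. Median UMIs were 5195, 5459 and 5913.5 in WT and 4187.5, 4404.5 and 5353 in KI. Cd163l1 was lowest in the cells with both contigs, at 18.7 CPM in WT and 22.1 in KI, against 124 and 71.6 in cells with no TRB contig.

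**Figure D5:**
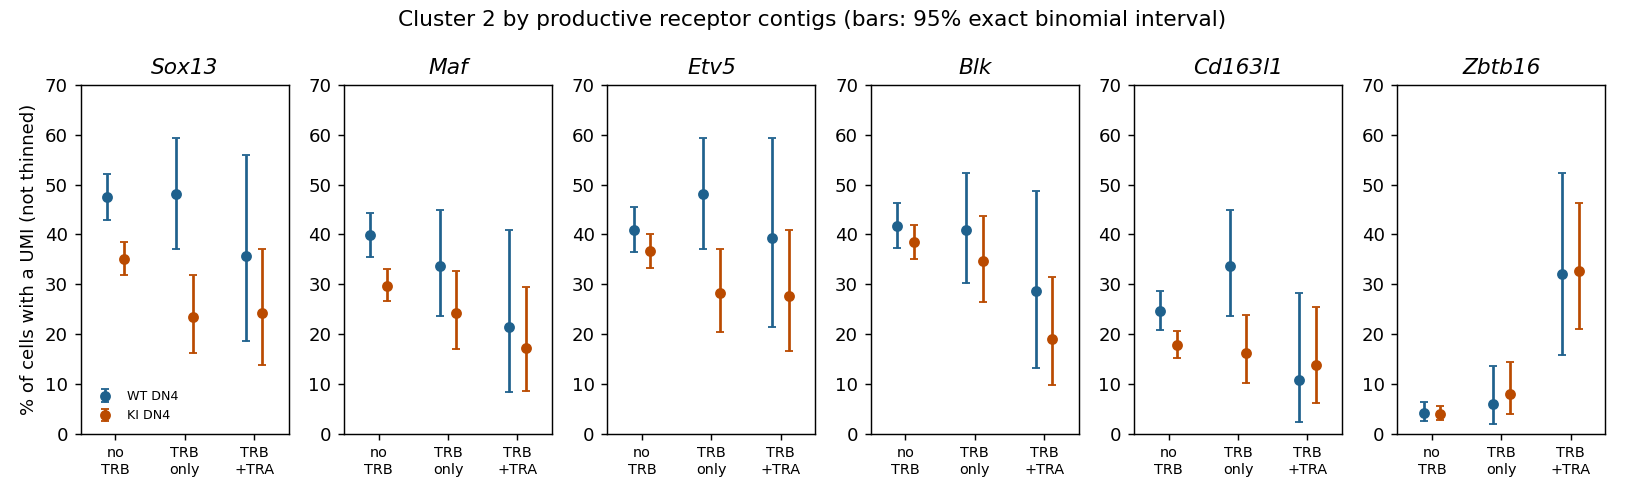
Share of cluster 2 cells with a UMI of each member (vertical axis, percent, not thinned) by receptor contigs (horizontal axis), with no TRB, with TRB alone and with TRB and TRA, in WT and KI DN4; bars are 95% exact binomial intervals. Zbtb16 stands at 32.1% and 32.8% in cells with both contigs, against 4.13% and 4.03% in cells with no TRB contig.

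An invariant α chain of NKT cells, TRAV11 joined to TRAJ18, was found in 14 cells, all of DN4 (5 WT and 9 KI), of which 12 lay in cluster 2. Of those 12, 10 had a Zbtb16 UMI, at 454 CPM from 37 UMIs, and 1 had Sox13, 2 had Maf and 1 had Trdc.

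By the deposited cell cycle phases, Sox13, Maf, Blk and Cd163l1 were highest in G1 cells of cluster 2 in both libraries. In WT, G1, S and G2M held 536, 38 and 21 cells. Sox13 stood at 188, 58.8 and 88.3 CPM in them, Maf at 133, 11.3 and 22.1 and Cd163l1 at 132, 43.0 and 30.9. In KI the values were 119, 73.9 and 63.3 for Sox13, 98.4, 11.1 and 35.6 for Maf and 83.0, 20.3 and 23.7 for Cd163l1. Blk stood at 195, 76.9 and 97.2 in WT and at 181, 94.2 and 135 in KI. Etv5 stood at 211, 113 and 141 in WT, and in KI at 169, 155 and 209.8. Zbtb16 stood at 23.3, 67.9 and 35.3 in WT and at 30.3, 46.2 and 11.9 in KI, the last from 3 UMIs.

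Genes whose levels were most alike were taken from 7835 genes over the 19 combinations of cluster and library, which share libraries and differ in depth, so the correlations are descriptions. Sox13 was most like Galnt10 (Pearson's r 0.96), Blk (0.96), 5830411N06Rik, another scavenger receptor (0.94), Cd163l1 (0.93) and Trdj1 (0.92). Blk and Cd163l1 shared Galnt10, 5830411N06Rik and 1190002N15Rik, with r from 0.91 to 0.95. Maf was most like Gata3, a T cell factor (0.95), Spsb1 (0.94), Sh3kbp1 (0.90), Stim1 (0.89) and Sox13 (0.88). Etv5 was most like Psmd8 and Tox2 (both 0.92), Slc15a1 (0.91), Cyba and Pdia3 (both 0.90). Zbtb16 was most like Tnfaip8l2, Actr3 and S100a4 (each 0.97) and Cd226 and Ccr10 (both 0.96). With Spearman's correlation, 0 of the 5 genes named for Etv5 and 0 of those for Zbtb16 remained.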

How the data were processed

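The authors deposited 1 matrix of whole UMI counts, 15653 genes by 10237 cells, with cluster and cell cycle phase per cell, and lists of T cell receptor contigs with UMI and read counts, used for the 4 libraries of each kind. The submitters' processing notes name Cell Ranger 3.1.0 and 6.0.1 and the mm10 build; how clusters, phases and filters were made is not given in the sources used here. The members and lists were chosen with earlier results of these data known. Named genes were the 6 members, for each the 5 genes of highest Pearson's r of log2(CPM + 1), and list genes of at least 20 CPM with a ratio of at least 1.5-fold and an interval that excluded equality, at most 6 per list.

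CPM is the summed count of a gene per 1000000 summed UMIs of the same cells. Ratios carry exact conditional binomial intervals and shares exact binomial (Clopper-Pearson) intervals, at 95% and for counting error only; a gene with 0 counts on 1 side was set against a floor of 3 counts. Genes needed 20 CPM in 1 of the libraries compared. Cells held 717 to 46885 UMIs, and the libraries 16411164 to 30402236. With 1 library per group there was no test, and an additive genotype and stage model over the 4 libraries, with 1 residual degree of freedom, was not fitted. Scrublet called 73 doublets, which were kept; its rates in DN3 (0.139% and 0.152%) are low enough to have missed doublets. Contigs were joined by library and barcode, and a cell had TRB or TRA with a productive contig. Gene positions were matched by symbol to the GENCODE annotation of GRCm38. Alternatives were trimmed-mean (TMM) scaling, per-cell means, and leaving out doublets, TRB cells or clusters. The scripts were tested on simulated data. Python 3.11.15, numpy 2.4.6, scipy 1.17.1, pandas 2.3.3, scanpy 1.11.5, matplotlib 3.10.9, R 4.3.3 and edgeR 4.0.16 (for TMM alone) were used.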

Additional observations from a re-analysis of the deposited data

Results flagged for a closer look

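Etv5 had opposite signs in the summed counts of the 2 stages. Its log2 ratio of KI over WT was 0.44 (0.05 to 0.84) in DN3, from 90 UMIs in WT and 138 in KI, and -0.43 (-0.56 to -0.30) in DN4, from 834 and 1146 UMIs. Its DN3 levels (3.97 and 5.41 CPM) lay below the minimum of 20 CPM. In clusters 3 and 4 joined, the sign was the same, at 0.63 in DN3 and 0.63 in DN4, also below that minimum. Cluster 2, with 0 WT and 2 KI cells of DN3, held 86.8% (WT) and 75.8% (KI) of the DN4 UMIs of Etv5. The difference between the stages was not tested, since each stage had 1 library per genotype.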

How the results depend on the processing

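With 1 library per group, no ratio had a replicate check, and the 6 and 3 UMIs of Zbtb16 in DN3 limit its stage ratio. No paired analysis was possible because each group had 1 library, so the groups compared share fewer than 2 replicate numbers. For KI over WT in DN4, leaving out TRB cells gave Sox13 -0.59, Maf -0.55, Etv5 -0.16 and Blk -0.064, and the WT cluster mix gave -0.58, -0.43, -0.21 and -0.058, with Cd163l1 at -0.74. Leaving out clusters 2, 5 and 7 gave Sox13 -0.37 and turned Etv5 to 0.025 and Blk to 0.17, with Zbtb16 at 1.48 from 1 and 6 UMIs. Means of per-cell CPM gave Maf -0.37, Blk -0.054 and Zbtb16 0.082. In DN3, Etv5 went to 1.01 without TRB cells. For DN4 over DN3 in WT, per-cell means gave Sox13 3.57, Maf 3.67, Etv5 5.38, Blk 2.42 and Cd163l1 2.32, and leaving out TRB cells gave 4.23, 4.67, 6.13, 3.20 and 2.76. In KI the same genes had 2.81, 3.92, 4.57, 3.07 and 2.53 by per-cell means and 3.51, 4.72, 4.95, 3.70 and 3.30 without TRB cells. In cluster 2, Zbtb16 went to -0.55 without TRB cells, and in cluster 7 Cd163l1 went to 2.88. The cause of these shifts was not tested. TMM scaling and leaving out doublets kept each member ratio compared within its interval, and so did 2 alternatives chosen after seeing the data, cells of at least 2500 UMIs and Zbtb16-detected cells left out. Genes at least 2-fold apart numbered 37 in DN4 and 40 in DN3 for KI over WT, but 115 and 84 at a minimum of 5 CPM and 1448 and 1314 with no minimum. For DN4 over DN3 they numbered 493 in WT and 450 in KI, against 995 and 936, and 2883 and 2969.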

Other observations

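V segments with a δ or γ name were looked at in cluster 2 cells after the values above were seen. Cells with a UMI of Trav15-1-dv6-1 or Trav15d-1-dv6d-1, near-identical copies whose counts may be split, numbered 62 in WT and 76 in KI. Zbtb16 was detected in 17.7% of them in WT (9.20 to 29.5) and 13.2% in KI (6.49 to 22.9), against 4.32% and 5.67% of cluster 2 cells without them. Sox13 was detected in 30.6% (WT) and 21.1% (KI) of the cells with either copy, against 49.0% and 34.0% without. With Tcrg-V1 detected as well (44 WT and 49 KI cells), Zbtb16 was detected in 22.7% and 20.4%. Among cells with Trdv2-2 or Trdv5 and neither copy, it was detected in 2.51% of 359 WT and 1.72% of 523 KI cells. Another segment of the family, Trav15-2-dv6-2, was detected in 83 WT and 134 KI cells, of which 3.61% and 0% had a Zbtb16 UMI. With Tcrg-V7 (49 and 55 cells) the share was 14.3% in WT and 1.82% in KI. Median UMIs were 5911.5 and 5279 in the cells with a copy and 5190.0 and 4169 in those without, and the part of depth in these shares was not tested. By name the copies belong to both the α (Trav) and the δ (dv) segments, so a UMI need not come from a δ chain. A TRB contig was found in 21.0% (WT) and 22.4% (KI) of cells with a copy, against 18.4% and 18.3%. Which chain the UMIs came from was not tested.

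Cells with a Trdv4 UMI were few. Sox13 was detected in 15 of 18 in WT (83.3%, 58.6 to 96.4) and in 3 of 23 in KI (13.0%, 2.78 to 33.6), and Blk in 15 and 9 of them, at median depths of 5531 and 3883 UMIs. These shares were picked out after they were seen, and no difference was tested.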
